A study of Homo sapiens with 9 samples.

Results

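The genes described here are 46 genes of DNA replication and cell division, taken from a named list and found in the count files by their Ensembl identifiers. All 46 matched 1 identifier each among the 58219 of the files, and all 46 were among the 14617 genes that passed the filter on low counts, so no member is missing from the counts below. The first 23 act at the G1/S transition and in S phase, and the other 23 act in G2 and mitosis. They were followed in PLC/PRF/5, an established human hepatoma line, in stable lines expressing the Src family tyrosine kinase YES, either as the wild type (4 samples) or as the T348I gatekeeper mutant (5 samples). All 9 samples were exposed to 100 nM dasatinib, a kinase inhibitor that blocks Src family and ABL kinases and that binds many gatekeeper mutants poorly. Samples without the drug or without introduced YES were not analysed here, and whether each line is 1 clone or a pool, and how long the drug was given, are not stated in the sources used here. The titles spell the drug in 2 ways. There are 3 samples of each genotype under the spelling dasatinib, while Dasa is used for 1 wild-type sample and 2 of T348I. Each spelling is treated as a set of its own, and what it stands for is not given. The comparison asks which transcripts differ, under the drug, between cells with either form of the kinase.

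In a dividing cell, E2F transcription factors switch on the genes that license replication origins, build the replication fork and supply deoxynucleotides, once G1 cyclin-dependent kinases have inactivated the retinoblastoma protein. Genes of mitosis peak later, when B-MYB and FOXM1, bound with the MuvB core, act through an element called the cell cycle genes homology region (CHR). In resting cells the DREAM complex, built on the same core, holds both sets down. Adult hepatocytes rarely divide, and raised levels of both gene sets are a known feature of proliferating hepatoma.

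Samples held 10381142 to 15799059 reads in genes, and CDC25C, the least read of the 46, had at least 116 reads in every sample. CPM are counts scaled to library size, here with the trimmed mean of M-values (TMM). YES1, in which introduced and native transcripts cannot be told apart, stood at 341 to 368 CPM in wild-type samples and 553 to 1032 CPM in T348I samples (log2 fold change 0.95 ± 0.0872 SE, edgeR adjusted p = 4.84e-08). Its T348I samples averaged 580 CPM in the dasatinib set and 1003 CPM in the Dasa set, with log2 folds over wild type of 0.73 and 1.45. The T348I samples thus also differed in the level of the kinase, whose part in the results was not tested. The sets stood apart: mitochondrially encoded transcripts made up 7.38% to 9.44% of all gene counts in the dasatinib set and 15.25% to 17.01% in the Dasa set. Of 15 hepatocyte and hepatoma markers, APOB, FGA, FGB, FGG and SERPINA1 averaged 1424 to 3175 CPM in each group, while ALB was at 3.95 ± 0.478 CPM (SD, n = 4) in wild type and TTR stayed under 1 CPM. Of the 14 tested markers, 11 were lower in T348I and none was higher, against 21.8% and 20.7% of all tested genes. Summed marker levels overlapped in the dasatinib set, at 11780 to 12250 CPM in wild type and 11330 to 12460 CPM in T348I. In the Dasa set they were 14060 CPM in the wild-type sample and 9154 and 9781 CPM in T348I. The median log2 fold of the markers was -0.24 in the dasatinib set and -0.77 in the Dasa set. The part of these markers in the results was not tested. Of 15 markers of endothelial, fibroblast and blood cells, 13 stayed under 1 CPM in every sample and ACTA2 had no read, with sums of 5.133 to 11.9 CPM in wild type and 6.887 to 14.01 CPM in T348I. The other two were PECAM1 (not called) and COL1A1, called higher by 0.52.

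The G1/S and G2/M genes were first compared by the letters of their promoters, which owe nothing to expression in these samples. RefSeq promoter windows (build GRCh38.p14, from 250 bases before to 50 after a transcription start) were given for 38 of the 46 genes, 51 windows in all because some genes have several starts. Sites for E2F were searched on both strands as TTTCCCGC, TTTCGCGC, TTTGCCGC and TTTGGCGC. At least 1 was found in 13 of 28 G1/S windows (46.4%) and in 3 of 23 G2/M windows (13%), against 3.31% of all 35116 windows and 4.93% of the windows of tested genes. The CHR, searched as TTTGAA, was in none of the G1/S windows and in 13 of the 23 G2/M windows (56.5%), against 15.2% of all windows and 10.3% of those of tested genes. The letters CCAAT, the box bound by NF-Y, were in 71.4% of G1/S and 82.6% of G2/M windows, against 34.6% of all. All 13 G2/M windows with TTTGAA also held CCAAT. Windows of 1 gene can overlap and share matches. A match shows the letters only and not that a factor binds there.

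The stretches just before the start of 8 of these genes are shown because they carry the pattern and belong to genes described next. Each runs 5′ to 3′ on the gene's own strand and ends at the base before the start, in lower case, with E2F, TTTGAA and CCAAT matches of either strand in capitals. In MCM6 the longest runs of capitals are E2F matches of opposite strands that overlap. In MKI67 the TTTGAA nearest the start overlaps a CCAAT match, and in MCM7 an E2F match overlaps a CCAAT match that crosses the start and is left in lower case. The first 4 belong to the G1/S set and hold E2F matches:
MCM6 (chr2:135876444-135876603, minus strand): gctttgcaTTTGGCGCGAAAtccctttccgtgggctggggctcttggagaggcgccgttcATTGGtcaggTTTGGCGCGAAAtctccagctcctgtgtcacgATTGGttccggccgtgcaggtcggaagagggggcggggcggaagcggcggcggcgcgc
MCM7 (chr7:100101398-100101497, minus strand): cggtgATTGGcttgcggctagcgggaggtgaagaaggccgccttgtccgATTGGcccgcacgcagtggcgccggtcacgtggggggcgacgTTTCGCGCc
GINS2 (chr16:85688955-85689054, minus strand): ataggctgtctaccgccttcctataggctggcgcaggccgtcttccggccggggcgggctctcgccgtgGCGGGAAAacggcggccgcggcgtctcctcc
E2F1 (chr20:33686386-33686505, minus strand): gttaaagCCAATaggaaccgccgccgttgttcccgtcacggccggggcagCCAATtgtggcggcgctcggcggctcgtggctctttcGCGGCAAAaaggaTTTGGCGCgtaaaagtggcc
The next 3 belong to the G2/M set and hold TTTGAA, and CCNB1, also of the G2/M set, has CCAAT without TTTGAA in this window:
PLK1 (chr16:23678789-23678888, plus strand): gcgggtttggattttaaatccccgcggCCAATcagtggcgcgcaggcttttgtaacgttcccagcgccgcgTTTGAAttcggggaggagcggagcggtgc
CDC20 (chr1:43358871-43358980, plus strand): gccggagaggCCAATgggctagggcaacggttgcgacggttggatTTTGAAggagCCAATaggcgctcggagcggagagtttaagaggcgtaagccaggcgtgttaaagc
MKI67 (chr10:128126424-128126533, minus strand): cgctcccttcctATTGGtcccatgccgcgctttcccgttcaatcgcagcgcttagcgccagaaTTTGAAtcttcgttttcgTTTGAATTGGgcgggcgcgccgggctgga
CCNB1 (chr5:69167050-69167149, plus strand): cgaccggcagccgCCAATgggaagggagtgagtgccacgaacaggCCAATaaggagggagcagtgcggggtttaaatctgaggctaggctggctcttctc

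Cells with T348I YES held more transcript of most of these genes, by small amounts. Of the 23 G1/S genes, 14 were higher in T348I samples, 1 was lower and 8 did not pass the test (edgeR quasi-likelihood F-test with set and group as terms, Benjamini-Hochberg adjusted p under 0.05 over all tested genes). Of the 23 G2/M genes, 17 were higher, 1 was lower and 5 did not pass. The 31 higher calls are 67.4% of the 46 genes, against 20.7% of all tested genes, and the 2 lower calls are 4.35%, against 21.8%. In either direction 42.5% of all tested genes were called. The 46 genes were chosen with earlier results of these data known, so these shares are given as description. Among the 9677 tested genes with a mean of at least 10 CPM, as all 46 members have, 25.6% were called higher and 24.9% lower.

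In the fit over both sets the size of the change was below 1.5-fold in every one of the 46 genes. Within the Dasa set, with 1 wild-type sample, CDC20 (log2 fold 0.82) and RRM2 (0.68) exceeded 1.5-fold. The median log2 fold change (T348I over wild type) was 0.15 for the G1/S genes and 0.18 for the G2/M genes, or 1.11-fold and 1.14-fold, against -0.0077 for all tested genes. The G1/S values ran from -0.13 (SLBP) to 0.51 (RRM2) and the G2/M values from -0.28 (AURKA) to 0.51 (CDC20). Changes of this size depend on the scaling: with libraries scaled by total gene reads in place of TMM, the median over all genes moved from -0.0077 to -0.06, the G1/S genes split into 7 higher and 3 lower and the G2/M genes into 13 higher and 2 lower. In the same setting 2217 of all 6364 called genes were higher, against 3029 of 6212 with TMM. Without the set term 5 G1/S and 7 G2/M genes were called, all of them higher. In that fit 2350 of all 14617 tested genes were called, 1234 of them higher. In bulk RNA, a larger share of cells in a phase and more transcript per cell in that phase cannot be told apart.

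**Figure D1:**
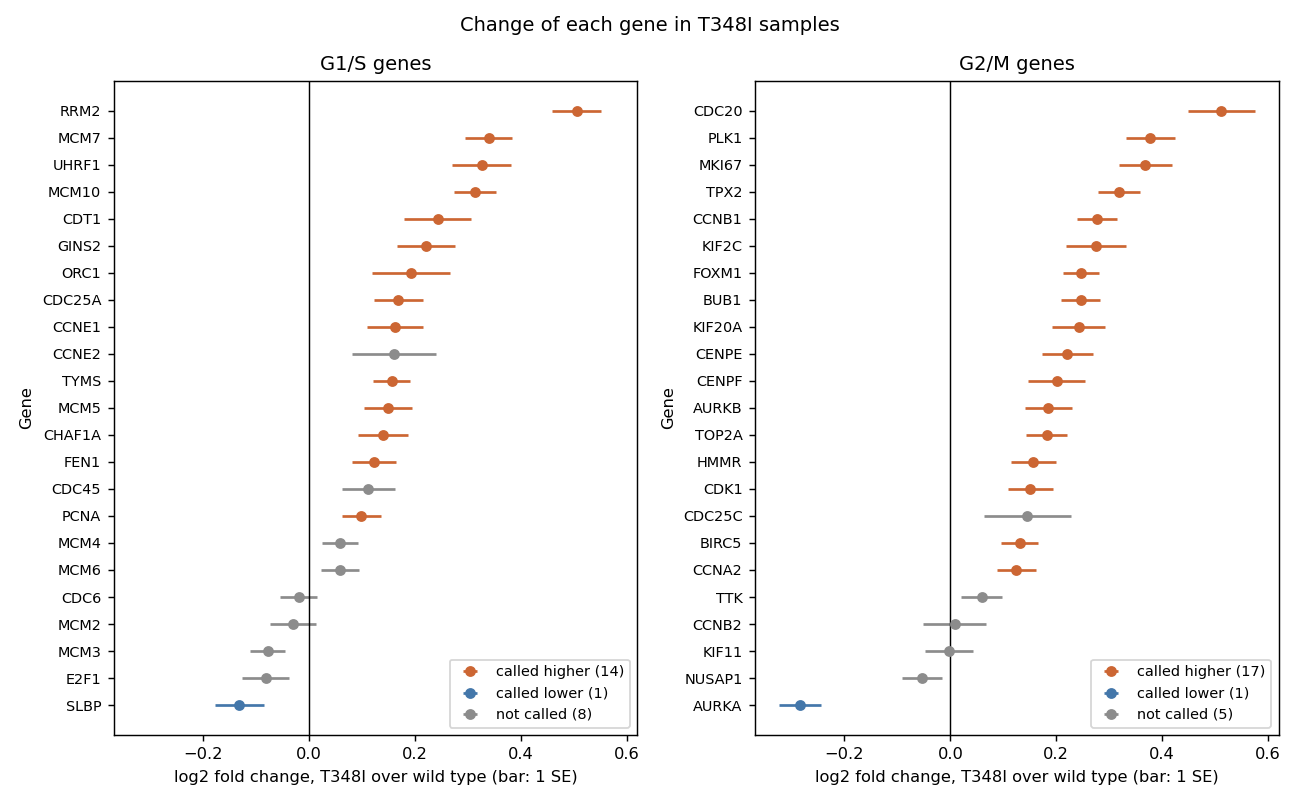
Log2 fold change of each gene, T348I over wild type (x axis), with 1 standard error as the bar, for G1/S genes (left) and G2/M genes (right), ordered by value; colours mark the edgeR calls. 14 of 23 G1/S genes and 17 of 23 G2/M genes lie to the right as called higher, and SLBP and AURKA are called lower.

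Summed over each list, the levels were as follows in single samples. The 23 G1/S genes together stood at 2542, 2562 and 2527 CPM in wild-type samples of the dasatinib set and at 2703, 2775 and 2809 CPM in T348I samples of that set. In the Dasa set they stood at 2322 CPM in the wild-type sample and at 2652 and 2715 CPM in T348I samples. Every T348I sample lay above every wild-type sample, by as little as 2652 against 2562 CPM. The 23 G2/M genes together stood at 2937, 2961 and 2866 CPM in wild type and 3313, 3193 and 3241 CPM in T348I of the dasatinib set, and at 3088 CPM against 3517 and 3597 CPM in the Dasa set. These groups did not overlap either. The ratio of the G2/M sum to the G1/S sum was 1.13 to 1.16 in wild type and 1.15 to 1.23 in T348I of the dasatinib set. In the Dasa set it was 1.325 to 1.33, so the sets were apart and the genotypes overlapped. This ratio does not describe most G2/M genes, of which 11 were lower and 6 higher in the Dasa set (median log2 difference -0.12). MKI67 averaged 237 CPM in wild type of the dasatinib set and stood at 499.9 CPM in the wild-type Dasa sample. For CENPF these values were 130.5 and 223.7 CPM. The ratio without these 2 genes was not examined. As a share of unscaled gene reads, the G1/S genes took 0.224% to 0.268% in wild type and 0.246% to 0.284% in T348I, which overlap, and the G2/M genes 0.298% to 0.31% and 0.322% to 0.338%, which do not.

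**Figure D2:**
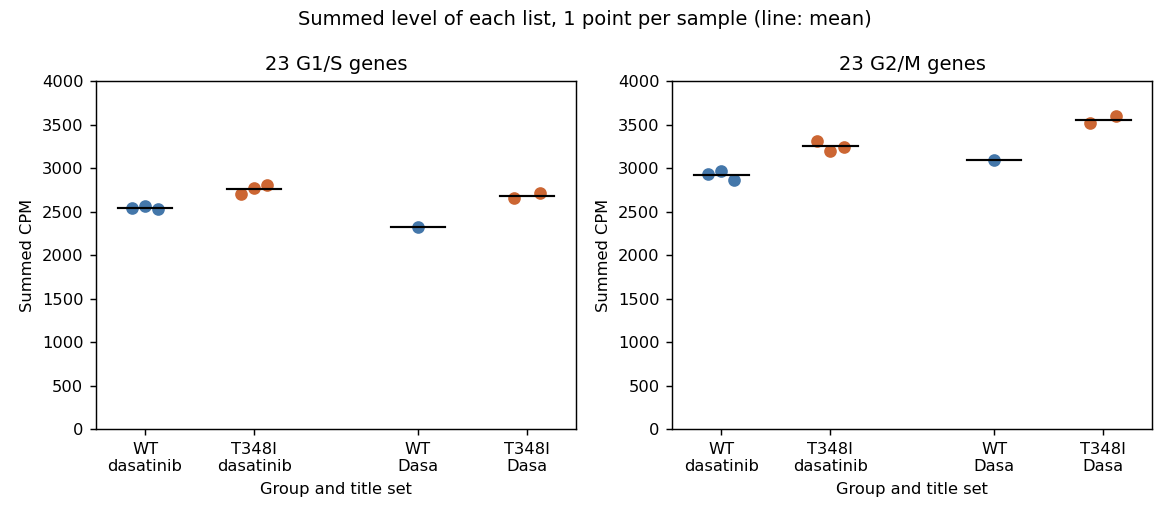
Summed CPM (y axis) of the 23 G1/S genes (left) and the 23 G2/M genes (right), 1 point per sample, by group and title set, with the mean as a line. G1/S sums are 2322 to 2562 CPM in wild type and 2652 to 2809 CPM in T348I, and G2/M sums are 2866 to 3088 CPM and 3193 to 3597 CPM.

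Among single genes, 17 of the 46 (37%) had all 5 T348I samples above all 4 wild-type samples, 8 in the G1/S set and 9 in the G2/M set, against 10.2% of all tested genes. Within the dasatinib set alone, 29 of 46 (63%) had all 3 T348I samples above all 3 wild-type samples, against 21.8% of tested genes. Another 5 of the 46, 4 in the G1/S set and 1 in the G2/M set, had all 3 below, against 3341 of 14617 tested genes. Over the 9 samples no member had all T348I samples below, against 1375 of all tested genes.

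**Figure D3:**
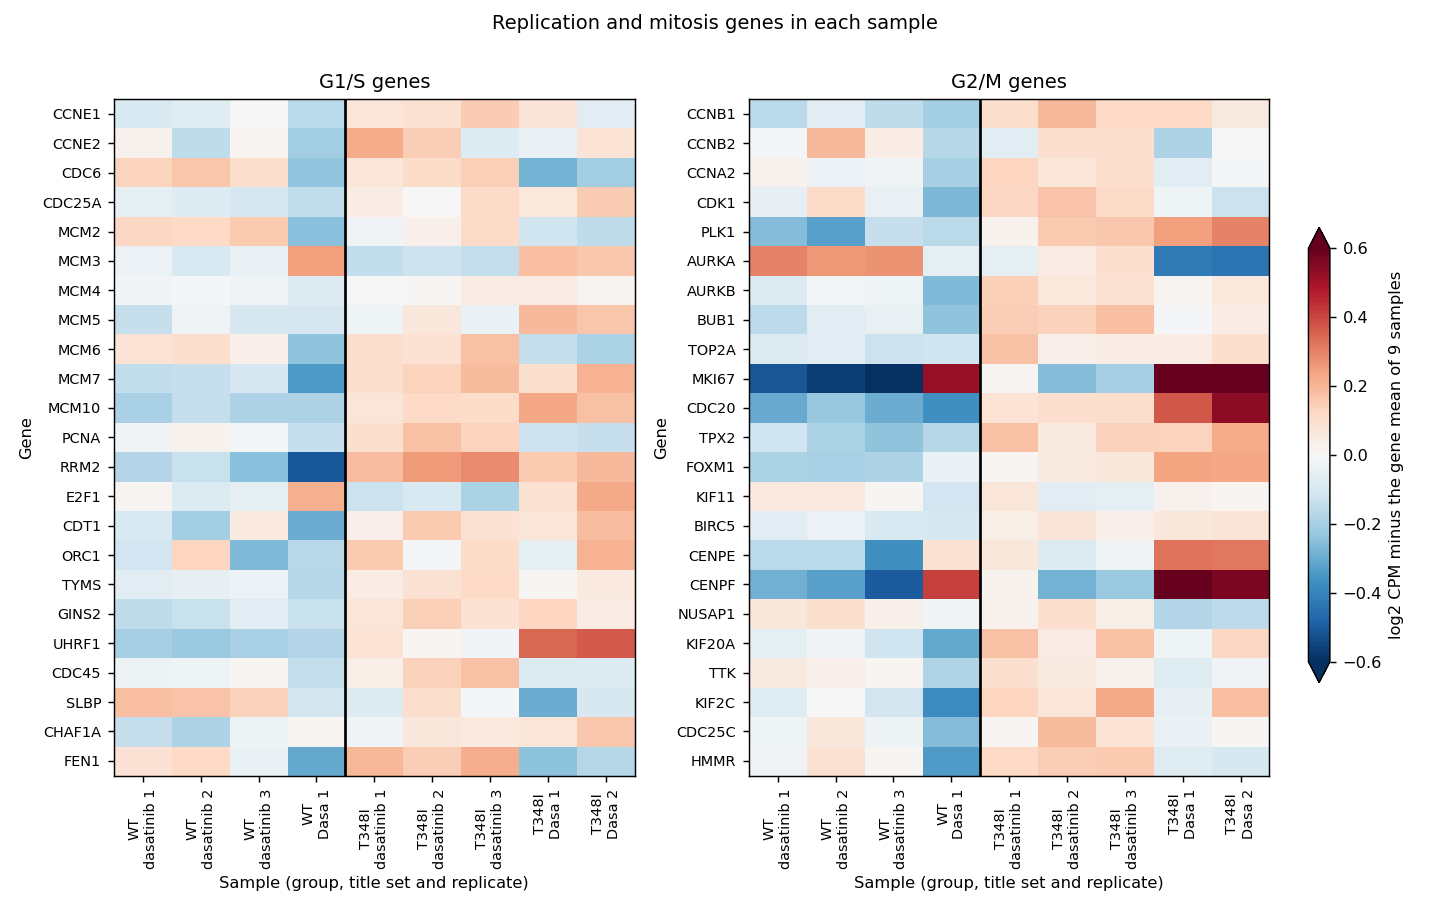
Log2 CPM of each gene (rows) in each of the 9 samples (columns) minus that gene's mean over the samples, for G1/S genes (left) and G2/M genes (right); the black line separates 4 wild-type from 5 T348I samples, and colours stop at 0.6 in either direction. Most rows are bluer left of the line, and MKI67, CENPF and CENPE are higher in all 3 Dasa-titled samples.

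Licensing of replication origins, which loads the MCM helicase onto DNA in G1, starts with ORC1, CDC6 and CDT1. CDT1 stood at 36, 33.3 and 39.9 CPM in wild-type and 39.2, 42.6 and 40.6 CPM in T348I samples of the dasatinib set, and at 31.1 CPM against 40.3 and 43.5 CPM in the Dasa set. CDT1 was higher in T348I samples, with a log2 fold change of 0.24 ± 0.063 SE (edgeR adjusted p = 0.00414). Its groups overlapped in the dasatinib set and not in the Dasa set. CDC6, which loads the helicase with CDT1, did not pass the test (log2 fold change -0.02, edgeR adjusted p = 0.691), and its 9 samples separated by set instead, with 184 to 196 CPM in the dasatinib set and 144 to 152 CPM in the Dasa set. ORC1, the largest subunit of the origin recognition complex, was called higher by 0.19 (edgeR adjusted p = 0.0422). Leaving out any of 6 samples ended that ORC1 call. These were replicates 1 (0.19) and 3 (0.14) of wild-type dasatinib, wild-type Dasa replicate 1 (0.18), replicates 1 (0.18) and 3 (0.19) of T348I dasatinib and T348I Dasa replicate 2 (0.16).

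The 6 subunits of the MCM2-7 helicase ring, which work in equal numbers in the protein complex, gave 2 calls, MCM7 and MCM5. MCM7 stood at 275, 277 and 284 CPM in wild-type and 327, 334 and 347 CPM in T348I samples of the dasatinib set, and at 239.7 CPM against 325 and 351.5 CPM in the Dasa set. MCM7 was higher in T348I samples, with a log2 fold change of 0.34 ± 0.0439 SE (edgeR adjusted p = 4.14e-06). MCM7 (ENSG00000166508.17, GRCh38 chr7:100092728-100101940, minus strand) was higher in every T348I sample than in any wild-type sample. MCM5 was called higher by 0.15 (edgeR adjusted p = 0.0115), a call lost without wild-type Dasa replicate 1 (0.10). MCM4 (0.06) and MCM6 (0.06) did not pass the test, and MCM4 had its T348I samples at 244 to 253 CPM just above its wild-type samples at 231 to 242 CPM. MCM2 (-0.03) and MCM3 (-0.08) did not pass either. In the dasatinib set the T348I samples of MCM2 and of MCM3 lay below the wild-type samples, at 113 to 124.2 against 124.5 to 127.9 CPM and at 218 to 221 against 226 to 235 CPM. In the Dasa set MCM2 went the other way, with T348I samples at 105.7 and 103.1 CPM against 96.56 CPM in wild type. MCM3 was again lower there, at 272.7 and 269.7 CPM against 285.2 CPM.

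Of 3 factors that turn the loaded ring into an active fork, MCM10 and GINS2 were higher. MCM10 stood at 69.5, 72.1 and 70.1 CPM in wild-type and 83.7, 86.7 and 85.9 CPM in T348I samples of the dasatinib set, and at 70.2 CPM against 93.7 and 90.1 CPM in the Dasa set. MCM10 was higher in T348I samples, with a log2 fold change of 0.31 ± 0.0396 SE (edgeR adjusted p = 3.14e-06). MCM10 helps the helicase open the origin, and its groups did not overlap. GINS2 stood at 23.7, 24 and 25.2 CPM in wild-type and 27.7, 29.1 and 28 CPM in T348I samples of the dasatinib set, and at 24 CPM against 28.8 and 27.3 CPM in the Dasa set. GINS2 was higher in T348I samples, with a log2 fold change of 0.22 ± 0.0546 SE (edgeR adjusted p = 0.00294). GINS2 is a subunit of the GINS complex, part of the active helicase, and its groups were also apart. CDC45, the third component of that helicase, did not pass the test (log2 fold change 0.11, edgeR adjusted p = 0.0788) and was called without T348I dasatinib replicate 1 (0.14).

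Genes of nucleotide supply rose. RRM2 stood at 261, 268.5 and 247 CPM in wild-type and 335, 352 and 358 CPM in T348I samples of the dasatinib set, and at 207 CPM against 328.5 and 337 CPM in the Dasa set. RRM2 was higher in T348I samples, with a log2 fold change of 0.51 ± 0.046 SE (edgeR adjusted p = 4.02e-08). RRM2, the cell-cycle-regulated subunit of ribonucleotide reductase, makes deoxynucleotides. It changed more than any other G1/S gene, by 1.42-fold, and its lowest T348I sample (328.5 CPM) stood above its highest wild-type sample (268.5 CPM). TYMS stood at 169.9, 172 and 174 CPM in wild-type and 183, 189.6 and 193 CPM in T348I samples of the dasatinib set, and at 158 CPM against 179 and 185 CPM in the Dasa set. TYMS was higher in T348I samples, with a log2 fold change of 0.16 ± 0.0349 SE (edgeR adjusted p = 0.00126). TYMS makes the thymidylate needed for DNA, and its groups did not overlap.

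At the fork and on new chromatin, UHRF1 led. UHRF1 stood at 36.6, 36.1 and 36.7 CPM in wild-type and 44.5, 42.4 and 41.6 CPM in T348I samples of the dasatinib set, and at 37.2 CPM against 53.5 and 54.3 CPM in the Dasa set. UHRF1 was higher in T348I samples, with a log2 fold change of 0.33 ± 0.0558 SE (edgeR adjusted p = 9.77e-05). UHRF1 brings the maintenance methyltransferase DNMT1 to newly copied DNA, and its T348I samples stood above all wild-type samples in both sets. PCNA, the sliding clamp of DNA polymerases, was called higher by 0.10 (edgeR adjusted p = 0.0381). Its Dasa-set samples did not separate the genotypes, with 141 CPM in the wild-type sample and 143 and 141 CPM in T348I. PCNA was not called when replicate 1 (0.09), 2 (0.10) or 3 (0.09) of wild-type dasatinib was left out, nor without replicate 2 (0.08) or 3 (0.09) of T348I dasatinib. FEN1, which trims Okazaki fragments, was called higher by 0.12 (edgeR adjusted p = 0.0206), a call that ended when replicate 3 of wild-type dasatinib (0.09) or of T348I dasatinib (0.11) was left out. CHAF1A, which deposits histones on new DNA, was called higher by 0.14 (edgeR adjusted p = 0.0208), and 4 samples each decided that CHAF1A call: replicates 1 (0.13) and 2 (0.12) of wild-type dasatinib, and 2 (0.13) and 3 (0.13) of T348I dasatinib. DESeq2 called none of PCNA (0.10), CHAF1A (0.14) and ORC1 (0.19).

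SLBP, which binds the stem-loop of histone mRNA and is needed to make histones in S phase, was the 1 G1/S gene called lower. SLBP stood at 110.3, 109.6 and 107 CPM in wild-type and 92.2, 105 and 96.3 CPM in T348I samples of the dasatinib set, and at 90 CPM against 79.2 and 90.9 CPM in the Dasa set. SLBP was lower in T348I samples, with a log2 fold change of -0.13 ± 0.0466 SE (edgeR adjusted p = 0.0285). The groups overlapped over the 9 samples but not within the dasatinib set, and in the Dasa set T348I replicate 2 was level with the wild-type sample. SLBP missed the threshold with DESeq2 (-0.13) and when any of 5 samples was left out. These were replicates 1 (-0.12) and 2 (-0.13) of wild-type dasatinib, 1 (-0.10) and 3 (-0.12) of T348I dasatinib and T348I Dasa replicate 1 (-0.11).

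Of 4 drivers of the G1/S transition, CDC25A and CCNE1 were called. CDC25A stood at 46.8, 46 and 45.4 CPM in wild-type and 50.1, 48.7 and 52.6 CPM in T348I samples of the dasatinib set, and at 43.9 CPM against 50.8 and 53.9 CPM in the Dasa set. CDC25A was higher in T348I samples, with a log2 fold change of 0.17 ± 0.0466 SE (edgeR adjusted p = 0.00655). CDC25A removes inhibitory phosphates from CDK2, and its groups did not overlap, though with total-read scaling it missed the threshold (0.12). CCNE1, cyclin E1, was called higher by 0.16 (edgeR adjusted p = 0.0193), but not with DESeq2 (0.17) nor when replicate 1 of wild-type dasatinib (0.15) or replicate 3 of T348I dasatinib (0.15) was left out. CCNE2, cyclin E2, was at 13.2 to 17.8 CPM and did not pass the test (0.16, edgeR adjusted p = 0.111), but was called without T348I dasatinib replicate 3 (0.22). E2F1, 1 member of the E2F family named in the background above, did not pass the test (-0.08, edgeR adjusted p = 0.145). It stood at 62.4 to 66.8 CPM in wild type and 57.9 to 62 CPM in T348I of the dasatinib set, and at 76.5 CPM against 70.2 and 77.2 CPM in the Dasa set. CCNE1 (0.11), MCM5 (0.10), PCNA (0.05), ORC1 (0.14), CHAF1A (0.09) and FEN1 (0.07) missed the threshold when libraries were scaled by total reads. With total-read scaling E2F1 (-0.13) and MCM3 (-0.13) were called lower, and MCM3 was also called lower with upper quartile scaling (-0.09).

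Among G2/M genes, the cyclin and kinase that start mitosis were higher. CCNB1 stood at 135, 143.5 and 135 CPM in wild-type and 162, 172 and 163.5 CPM in T348I samples of the dasatinib set, and at 131 CPM against 163 and 156 CPM in the Dasa set. CCNB1 was higher in T348I samples, with a log2 fold change of 0.28 ± 0.0373 SE (edgeR adjusted p = 6.61e-06). CCNB1 is cyclin B1, the partner of CDK1, and every T348I sample was above every wild-type sample. CDK1 itself was called higher by 0.15 (edgeR adjusted p = 0.00754) and CCNA2, cyclin A2, by 0.12 (edgeR adjusted p = 0.00882). With total-read scaling neither passed (CDK1 0.10, CCNA2 0.07). CCNB2, cyclin B2, did not pass the test (0.0081, edgeR adjusted p = 0.926), and its 9 samples overlapped in both sets at 31.3 to 40.8 CPM. CDC25C, the phosphatase that activates CDK1, had the lowest level per kilobase of exon of all 46 genes and did not pass (0.15, edgeR adjusted p = 0.165).

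Among the mitotic kinases PLK1 and AURKA moved in opposite directions. PLK1 stood at 76, 72.5 and 82.7 CPM in wild-type and 92.1, 101 and 102 CPM in T348I samples of the dasatinib set, and at 81.4 CPM against 108 and 112 CPM in the Dasa set. PLK1 was higher in T348I samples, with a log2 fold change of 0.38 ± 0.046 SE (edgeR adjusted p = 1.96e-06). PLK1 drives centrosome maturation and mitotic entry, and its groups did not overlap. AURKA stood at 374, 364.5 and 366 CPM in wild-type and 292.5, 315 and 326.5 CPM in T348I samples of the dasatinib set, and at 293.5 CPM against 227 and 224 CPM in the Dasa set. AURKA was lower in T348I samples, with a log2 fold change of -0.28 ± 0.0396 SE (edgeR adjusted p = 1.03e-05). AURKA (ENSG00000087586.17, GRCh38 chr20:56369389-56392337, minus strand), Aurora A, acts at spindle poles and activates PLK1, and it was the 1 G2/M gene called lower. Within each set every T348I sample of AURKA was below every wild-type sample. Over all 9 samples the groups overlapped, because the wild-type Dasa sample (293.5 CPM) was lower than the T348I dasatinib samples 2 and 3. The AURKA call was lost without the set term (-0.34) and kept its direction in each of the alternatives run. The AURKA activator TPX2 went the other way from its partner. TPX2 stood at 195.5, 186 and 179 CPM in wild-type and 240, 220.4 and 234 CPM in T348I samples of the dasatinib set, and at 188 CPM against 233 and 248 CPM in the Dasa set. TPX2 was higher in T348I samples, with a log2 fold change of 0.32 ± 0.0395 SE (edgeR adjusted p = 2.42e-06). TPX2 brings AURKA to spindle microtubules, and its groups did not overlap. AURKB, the kinase of the chromosomal passenger complex, was called higher by 0.18 (edgeR adjusted p = 0.00233), and BIRC5, survivin, of the same complex, by 0.13 (edgeR adjusted p = 0.0052), though BIRC5 missed the threshold with total-read scaling (0.08). Their T348I samples also lay above all wild-type samples.

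The spindle checkpoint and exit from mitosis gave the largest change of the G2/M set. CDC20 stood at 89.8, 94.6 and 90.2 CPM in wild-type and 117, 119 and 119 CPM in T348I samples of the dasatinib set, and at 85.9 CPM against 144 and 161 CPM in the Dasa set. CDC20 was higher in T348I samples, with a log2 fold change of 0.51 ± 0.0629 SE (edgeR adjusted p = 2.19e-06). CDC20 (ENSG00000117399.13, GRCh38 chr1:43358955-43363203, plus strand) activates the anaphase-promoting complex, and it was 1.43-fold higher in T348I samples with no overlap between groups. BUB1 stood at 124, 133 and 134.5 CPM in wild-type and 153, 152 and 157 CPM in T348I samples of the dasatinib set, and at 117 CPM against 137.5 and 143 CPM in the Dasa set. BUB1 was higher in T348I samples, with a log2 fold change of 0.25 ± 0.0369 SE (edgeR adjusted p = 2.34e-05). BUB1, a checkpoint kinase at kinetochores, was also apart. TTK, the kinase upstream of BUB1 in the checkpoint, did not pass the test (0.06, edgeR adjusted p = 0.239). FOXM1, the transcription factor of late cell cycle genes, was higher. FOXM1 stood at 159, 158.5 and 159.5 CPM in wild-type and 183, 188 and 190.1 CPM in T348I samples of the dasatinib set, and at 176 CPM against 213 and 213 CPM in the Dasa set. FOXM1 was higher in T348I samples, with a log2 fold change of 0.25 ± 0.0335 SE (edgeR adjusted p = 7.39e-06). Its groups did not overlap within or across the sets.

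Markers and motors of dividing cells were mostly higher. MKI67 stood at 244, 236 and 230.4 CPM in wild-type and 352, 291 and 304 CPM in T348I samples of the dasatinib set, and at 499.9 CPM against 597 and 615 CPM in the Dasa set. MKI67 was higher in T348I samples, with a log2 fold change of 0.37 ± 0.0492 SE (edgeR adjusted p = 6.01e-06). MKI67, the Ki-67 protein that coats mitotic chromosomes, was higher in T348I within each set, while the wild-type Dasa sample exceeded all T348I dasatinib samples. TOP2A, the topoisomerase that untangles chromosomes, was called higher by 0.18 (edgeR adjusted p = 0.000778), with wild-type samples at 352 to 366 CPM below T348I samples at 392 to 434 CPM. The kinetochore genes CENPE and CENPF were called higher by 0.22 and 0.20 (edgeR adjusted p = 0.000973 and 0.00558). Of the kinesins, KIF2C was called higher by 0.28 and KIF20A by 0.24 (edgeR adjusted p = 0.000651 and 0.000606), while KIF11, which pushes spindle poles apart, did not pass (-0.0023). HMMR, a spindle-associated protein, was called higher by 0.16 (edgeR adjusted p = 0.00609), though with total-read scaling it missed the threshold (0.10). NUSAP1, a microtubule-bundling protein, did not pass (-0.05), but was called lower with total-read scaling (-0.11).

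Compared per kilobase of exon, PCNA and AURKA had the highest levels of the 46 genes, at 106 and 105.6 CPM per kilobase averaged over the 9 samples, followed by TYMS at 72.1. CCNE2 and CDC25C had the lowest, at 3.48 and 3.33. CPM themselves are not scaled by length.

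Genes with and without the promoter letters were both among those called. Of the 12 G1/S genes with an E2F match in a window, 7 were called higher, with a median log2 fold change of 0.13, and of the 8 with windows and no match 6 were called higher and 1 lower, with a median of 0.15. Of the 11 G2/M genes with TTTGAA, 7 were called higher, with a median of 0.16, and of the 7 with windows and no match all 7 were, with a median of 0.24. No test was made on these counts.

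Other genes of the same processes, listed by function with earlier results of these data known, were then counted. Over all tested genes 20.7% were called higher and 21.8% lower, and with total-read scaling 15.2% and 28.4%. Of 78 other mitosis genes, 51 were called higher (65.4%) and none lower, with a median log2 fold change of 0.15. With total-read scaling 32 of these were called higher (41%) and 1 lower (1.28%). ECT2, which starts the cytokinetic furrow, averaged 303 ± 25.8 CPM (SD, n = 4) in wild type and 406 ± 7.24 CPM (SD, n = 5) in T348I, and its log2 fold change was 0.43 ± 0.0458 SE (edgeR adjusted p = 3.08e-07). The cytokinesis gene ANLN rose by 0.34, the kinesin gene KIF14 by 0.39 and INCENP, of the passenger complex, by 0.28. Of 60 other replication genes, 27 were called higher (45%) and 4 lower (6.67%), with a median of 0.10. With total-read scaling 18 of these were higher (30%) and 9 lower (15%). The methyltransferase gene DNMT1 rose by 0.26, TOP1 by 0.25, the GINS subunit gene GINS4 by 0.25 and TIPIN, of the fork protection complex, by 0.41 (edgeR adjusted p from 2.25e-05 to 0.000129). ORC4, an origin recognition subunit, fell by 0.28 (edgeR adjusted p = 3.67e-05). GINS1 (-0.13) and DONSON (-0.12) were called lower but not without wild-type Dasa replicate 1 (GINS1 -0.10, DONSON -0.06) or T348I Dasa replicate 1 (each -0.11). DONSON was also not called without T348I Dasa replicate 2 (-0.11), nor was GINS1 when replicate 1 (-0.12) or 2 (-0.13) of wild-type dasatinib, or 1 (-0.11) or 3 (-0.13) of T348I dasatinib, was left out. DESeq2 called neither DONSON (-0.12) nor GINS1 (-0.13).

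Of 31 tested regulators of cell cycle transcription and checkpoints (32 listed), 10 were called higher (32.3%, against 20.7% of all tested genes) and 6 lower (19.4%, against 21.8%), with a median of 0.09. With total-read scaling 6 were higher (19.4%, against 15.2%) and 6 lower (19.4%, against 28.4%). The lower share with TMM and the higher share with total-read scaling are near the background. RBL2, the p130 pocket protein of the DREAM complex, averaged 48.8 ± 3.49 CPM (SD, n = 4) in wild type and 34.7 ± 4.74 CPM (SD, n = 5) in T348I, and its log2 fold change was -0.47 ± 0.0569 SE (edgeR adjusted p = 1.76e-06), with no overlap between groups. WEE1, the kinase that restrains CDK1, fell by 0.44 (edgeR adjusted p = 4.46e-06), TFDP2, a partner of E2F proteins, by 0.23 and RBBP4, a histone-binding subunit of MuvB, by 0.13. E2F3 rose by 0.30 (edgeR adjusted p = 9.01e-05), CDCA4 by 0.25, E2F4 by 0.21 and the checkpoint kinase gene CHEK1 by 0.17. Of 26 genes of cell cycle ubiquitin ligases, 5 were called higher (19.2%) and 7 lower (26.9%), with a median of -0.0090, shares near those of all tested genes. With total-read scaling 4 were higher (15.4%) and 10 lower (38.5%). UBE2S, which extends ubiquitin chains for the anaphase-promoting complex, rose by 0.52 (edgeR adjusted p = 3.9e-07), its partner UBE2C by 0.26, and the CDK subunit genes CKS1B and CKS2 by 0.32 and 0.21. SKP2, the F-box protein that targets CDK inhibitors, fell by 0.23 (edgeR adjusted p = 0.00156), ANAPC5 by 0.15, ANAPC13 by 0.17 and FBXW7, the F-box protein that targets cyclin E, by 0.20. FBXW7 was not called without wild-type Dasa replicate 1 (-0.11).

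The T348I fold was compared between the title sets next. In the dasatinib set 37 of the 46 genes had a positive log2 fold change and in the Dasa set 40, and 37 were positive in both. Of all 14617 tested genes, 7216 were positive in the dasatinib set, 7162 in the Dasa set and 5490 in both. The medians were 0.13 and 0.17 for the G1/S genes and 0.18 and 0.24 for the G2/M genes. The interaction of set and group was called in 3 genes, 6.52% of the 46, against 7.33% of all tested genes, so the share is near the background. These were CDC20 (log2 folds of 0.37 and 0.82, difference 0.45, edgeR adjusted p = 0.000167), RRM2 (0.43 and 0.68, difference 0.25, edgeR adjusted p = 0.0143) and MCM7 (0.27 and 0.50, difference 0.23, edgeR adjusted p = 0.0286). This test assumes for the single wild-type Dasa sample the spread seen within the other groups. Without T348I Dasa replicate 2 only CDC20 was called, with RRM2 at 0.23 and MCM7 at 0.17, and without T348I dasatinib replicate 1 the interaction was called in 5 genes. MCM7 also missed the threshold when replicate 3 of wild-type dasatinib (0.21) or replicate 2 of T348I dasatinib (0.22) was left out. YES1 itself had a larger T348I fold in the Dasa set (log2 folds of 0.73 and 1.45), and its part in these differences was not tested.

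**Figure D4:**
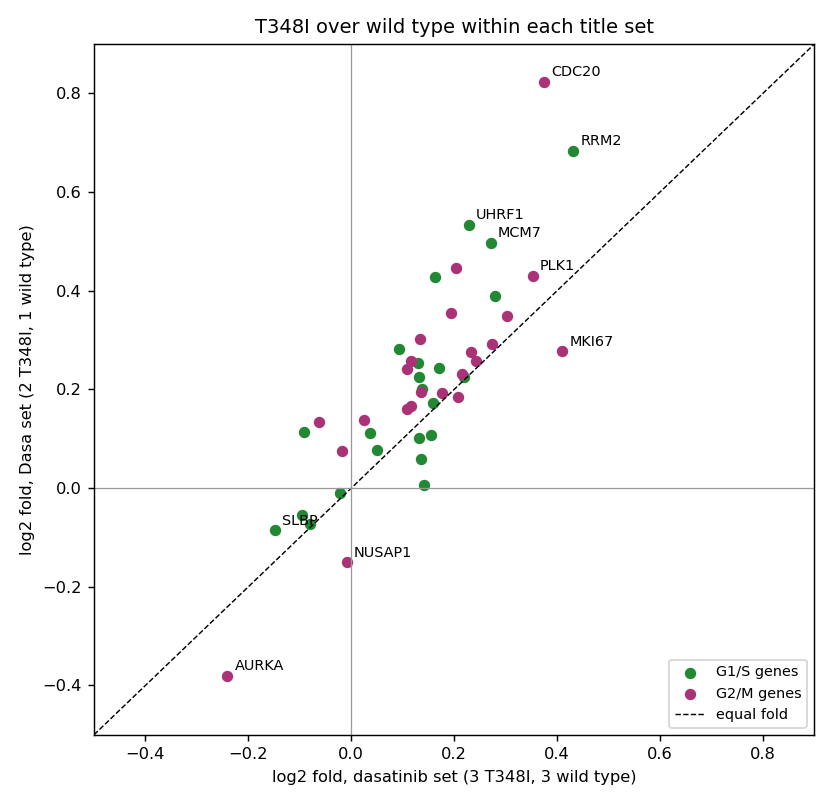
Log2 fold change of each of the 46 genes, T348I over wild type, in the dasatinib set (x axis) and in the Dasa set (y axis), with equal folds on the dashed line. 37 genes are positive in both sets, against 5490 of all 14617 tested genes, and CDC20 lies farthest above the line, at 0.37 and 0.82.

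At equal genotype the sets themselves differed in 28 of the 46 genes. Of all 14617 tested genes, 4336 were higher and 4232 lower in the Dasa set, so the total of 28 is not read as particular to the 46. Relative to the dasatinib set, 9 of the 46 genes were higher in the Dasa set (19.6%, against 29.7% of tested genes). Another 19 were lower (41.3%, against 29% of tested genes). AURKA (-0.41), FEN1 (-0.38), CDC6 (-0.36) and MCM6 (-0.30) had the most negative log2 folds of Dasa over dasatinib samples (edgeR adjusted p = 1.37e-07, 4.98e-07, 1.48e-07 and 2.32e-06). MKI67 (0.99), CENPF (0.76) and CENPE (0.33) had the most positive (edgeR adjusted p = 6.91e-12, 1.18e-09 and 1.17e-05), followed by MCM3 (0.31). MKI67, CENPF and CENPE are also the 3 longest of the 46 genes, with 12807, 11690 and 9444 bases of exon. Over the 46 genes Spearman's rho between exon length and the log2 difference between the sets was 0.36, and over 14585 tested genes it was 0.098. Tested genes with at least 9000 bases of exon, a length chosen after these values were seen, had a median set difference of 0.15 (2076 genes). These genes share libraries, and the part of length in the set difference was not tested further. With the T348I fold, exon length gave a rho of 0.26 over the 46 genes and -0.054 over the tested genes.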

How the data were processed

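RNA of 9 PLC/PRF/5 samples was sequenced from stranded polyA libraries (KAPA kit, per the labels). The deposited values are unnormalized read counts for each gene, in a file for every sample; CASAVA 1.8.2, Trimmomatic 0.35, STAR 2.5.1b and build GRCh38 are named in the submitters' processing notes, and the annotation release is not given in the sources used here. Counts of column 4, the strand that holds most gene reads, were used. Opposite-strand gene reads came to 5.48% to 5.91% of these. Rows that name no gene held 22.2% to 29.8% of reads and were left out. Multimapping reads count for no gene in these files.

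The 46 members and the other lists were chosen with earlier results of these data known. Symbols came from a table of gene names and exon lengths from GENCODE release 29, matched by identifier without version. After filterByExpr and TMM scaling, the fit used edgeR 4.0.16 under R 4.3.3 (quasi-likelihood F-test, terms set and group, Benjamini-Hochberg over 14617 genes, threshold 0.05, no fold minimum). The F statistic and the fold gave each standard error. A second model added the interaction. Alternatives were DESeq2 1.42.0, other scalings, no filter, no set term, the dasatinib set alone, a replicate block, counts without regard to strand, and leaving out each sample; scaling by total gene reads was added after the data were seen. Every sample is given for the 8 members of each set with the smallest p and for members called lower; of each other list, up to 4 genes called in each direction with the smallest p are named, except 1 that is not reported here.

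The labels name no separate cultures for samples of a group, so p-values cover only the spread among these samples, possibly technical. Within a group and set no 2 samples agreed within sampling noise (chi-square per gene 1.45 to 2.88). The scripts were tested on simulated data.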

Additional observations from a re-analysis of the deposited data

Results flagged for a closer look

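Of the 46 genes, 8 had 1 wild-type sample far from the other 3, and in each it was wild-type Dasa replicate 1, the only wild-type sample of its title set. It held less CDC6 (149 CPM, others 188 to 196), MCM2 (96.6 CPM, others 124.5 to 127.9), MCM4 (231 CPM, others 240.4 to 242), SLBP (90.04 CPM, others 107 to 110.3) and AURKA (293.5 CPM, others 364.5 to 374), and more MCM3 (285 CPM, others 226 to 235), FOXM1 (176 CPM, others 158.5 to 159.5) and MKI67 (499.9 CPM, others 230.4 to 244). Chance flags about 1 in 20 groups, but the number of these genes is not read against it. Where the title sets differ, the 1 Dasa sample of wild type would stand apart, but not 1 of the 2 of T348I. Of the 8 genes, only MCM4 was not called between the sets (log2 difference -0.01). The cause of the flags was not tested.

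The T348I fold differed between the sets, by the interaction test of edgeR, in CDC20 (0.45 more on the log2 scale in the Dasa set), RRM2 (0.25 more) and MCM7 (0.23 more). In each, both sets had a positive fold.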

How the results depend on the processing

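Of the 33 members called, 12 were called under each alternative run, 21 under each but the fit with no set term, 26 in each fit that left out 1 sample and 31 with the dasatinib set alone; no member's call changed direction. Leaving out 1 sample gave 10 to 14 G1/S calls and 18 G2/M calls, against 5131 to 5925 calls over all genes. Of these, 10 to 14 G1/S and 17 G2/M genes were called higher, against 2697 to 2958 of all genes. The interaction had 1 to 5 calls and could not be fitted without wild-type Dasa replicate 1. Without the set term 2350 of all genes were called, 1234 of them higher, with 5 G1/S (5 higher), 7 G2/M (7 higher), 6 other replication (6 higher), 11 other mitosis (11 higher), 4 regulator (3 higher) and 4 ubiquitin ligase genes (3 higher); the cause was not tested. Scaled by total gene reads, 15.2% of all tested genes were called higher and 28.4% lower. With this scaling 7 G1/S genes (30.4%) were higher and 3 (13%) lower, and 13 G2/M genes (56.5%) higher and 2 (8.7%) lower. Of the 78 other mitosis genes, 32 (41%) were higher and 1 (1.28%) lower. Among the 31 regulators 6 (19.4%) were higher, near the share of all genes, and 6 (19.4%) lower. Replicate numbers are shared between groups but did not pair the samples: in the dasatinib set, deviations of same-numbered samples correlated at -0.0077, -0.0763 and 0.0033. With the replicate block, in which T348I Dasa replicate 2 stands alone, 11 G1/S and 18 G2/M genes and 5372 of all genes were called. Depth limits precision most in CDC25C and CCNE2, which have the lowest counts and the largest standard errors of the 46 genes (0.0819 and 0.079).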
